A study of Mus musculus with 6 samples.

Results

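The 10 genes examined here make microRNAs and put them to use: Drosha, Dgcr8, Xpo5, Dicer1, Tarbp2, the Argonautes Ago1 to Ago4, and Tnrc6a. They were picked as a pathway, by gene symbol. Each was represented by 1 transcript cluster of the array, the cluster with the highest mean over the 6 arrays where a gene had more than 1. All 10 genes were found, among 23410 transcript clusters tested. The RNA came from CD4+TCRB+ T helper cells sorted from lymph nodes (inguinal, brachial and axillary) of naïve females aged 8 weeks, raised in mixed sex litters. There were 3 pools of B6-ChrYSJL females and 3 pools of B6 (C57BL/6J, wild type) females, with 5 mice in each pool and 1 Affymetrix Mouse Gene 1.0 ST array for each pool. B6-ChrYSJL is a consomic strain that carries the Y chromosome (ChrY) of SJL mice on the C57BL/6J background. Daughters inherit no ChrY, so the groups compared here differed in the ChrY of their fathers and shared the rest of the strain background.

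MicroRNAs are cut from long hairpin transcripts in the nucleus by the Microprocessor, in which DROSHA is the nuclease and DGCR8 the RNA-binding partner. Exportin 5, the product of Xpo5, carries the hairpin to the cytoplasm, where DICER1 with its partner TARBP2 trims it to a short duplex. An Argonaute protein keeps a single strand of the duplex and, through the TNRC6 scaffold proteins, brings deadenylases and decapping enzymes to matching mRNAs. In T cells, loss of Dicer is known to disturb helper cell differentiation and regulatory T cells, and activation is known to lower Argonaute protein.

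The promoters of Dicer1 and of the neighbouring Argonaute genes are shown because of the pools of Dicer1 and the level of Ago4. Dicer1 was the only gene of the 10 whose pools did not overlap between the strains, being lower in B6-ChrYSJL. Of all tested transcripts 9.42% were separated in that direction and 7.68% in the other. Ago4 was the only gene of the 10 below the background level of the arrays. Ago3, Ago1 and Ago4 follow each other on chromosome 4, with 0 protein-coding genes between them in the RefSeq annotation. Each sequence runs from 250 bases before to 50 bases after the annotated start of the gene, from RefSeq on GRCm38.p6, which is not the mm9 build named for the arrays. Dicer1 is at chr12:104751903-104752202, Ago3 at chr4:126429493-126429792, Ago1 at chr4:126468582-126468881 (the first of 2 windows) and Ago4 at chr4:126533409-126533708, all on the minus strand. Capitals mark GC boxes (GGGCGG or its reverse complement CCGCCC), including those that overlap.
Dicer1: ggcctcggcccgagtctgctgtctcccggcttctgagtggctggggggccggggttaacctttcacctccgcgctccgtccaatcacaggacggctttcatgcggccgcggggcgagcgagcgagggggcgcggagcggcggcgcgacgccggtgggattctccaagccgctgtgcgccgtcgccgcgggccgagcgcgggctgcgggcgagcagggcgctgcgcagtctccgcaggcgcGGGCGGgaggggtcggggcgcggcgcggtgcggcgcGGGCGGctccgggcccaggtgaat
Ago3: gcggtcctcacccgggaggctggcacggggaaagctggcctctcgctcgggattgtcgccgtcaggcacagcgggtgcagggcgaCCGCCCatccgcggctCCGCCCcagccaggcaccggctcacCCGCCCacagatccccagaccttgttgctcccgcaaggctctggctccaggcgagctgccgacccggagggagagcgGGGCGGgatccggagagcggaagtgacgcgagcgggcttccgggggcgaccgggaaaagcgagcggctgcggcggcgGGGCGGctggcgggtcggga
Ago1: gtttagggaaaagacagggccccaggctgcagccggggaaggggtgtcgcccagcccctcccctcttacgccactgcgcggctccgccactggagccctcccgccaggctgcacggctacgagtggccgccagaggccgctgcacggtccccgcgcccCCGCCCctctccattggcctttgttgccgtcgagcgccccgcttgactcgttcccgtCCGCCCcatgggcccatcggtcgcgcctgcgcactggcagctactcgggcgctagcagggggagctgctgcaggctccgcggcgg
Ago4: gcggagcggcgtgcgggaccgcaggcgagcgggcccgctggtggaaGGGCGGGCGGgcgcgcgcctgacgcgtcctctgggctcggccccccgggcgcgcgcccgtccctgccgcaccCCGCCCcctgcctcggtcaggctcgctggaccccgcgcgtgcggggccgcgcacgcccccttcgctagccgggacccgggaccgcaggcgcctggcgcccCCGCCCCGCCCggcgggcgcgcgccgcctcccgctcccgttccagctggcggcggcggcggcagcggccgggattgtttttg

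A promoter window was found for 9 of the 10 genes, Ago2 being the exception, with 10 windows in all. Ago1 had 2 windows, which overlap and hold the same GC boxes and the same ATTGG, so these are counted in both. The Ago4 window held 54 CpG dinucleotides and 5 GC boxes, that of Dicer1 49 and 2, that of Ago3 37 and 5, and that of Ago1 31 and 2. All 32851 windows of the annotation had a median of 7 CpG, and 35.7% of them held a GC box, against 8 of the 10 windows of these genes. The windows of the annotation were used without a filter for gene type or for expression in these cells. The window of Tnrc6a was the poorest in CpG, with 11. No window of these genes held TATAAA or its reverse complement TTTATA, which were in 13.6% of all windows. CCAAT or ATTGG was in 6 windows of these genes and in 37.4% of all windows. These counts describe the letters of the windows and no binding was measured.

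A second pair of sequences belongs to Dgcr8, whose mRNA is known to be a substrate of the Microprocessor itself. Within the span of Dgcr8 on chromosome 16 and on its strand, RefSeq places the hairpin of Mir1306, with these 2 mature arms, shown with the seed (bases 2 to 8) in capitals.
mmu-miR-1306-5p: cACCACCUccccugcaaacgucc
mmu-miR-1306-3p: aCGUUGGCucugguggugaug
Their positions are chr16:18284288-18284310 and chr16:18284248-18284268 on the minus strand of GRCm38.p6. No transcript cluster of the array was named Mir1306, so the hairpin has no value of its own here.

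Values are deposited log2 values, in which 1 unit is a doubling of signal. A background level of 5.98 was set at the 95th percentile of the means of 1210 olfactory and vomeronasal receptor transcripts. Of the tested clusters 61.6% lay above it. Across tested clusters any pair of arrays had a Pearson's r of 0.995 to 0.996, and no array was left out. Cd4, which was used for the sort, and Cd3e, of the T-cell receptor complex, averaged 11.5 and 12.5 in B6-ChrYSJL and 11.5 and 12.5 in B6. None of the 5 T helper markers listed was at an unadjusted p under 0.05 in limma. Pools overlapped for Cd4, Cd3e and Cd3g. All B6-ChrYSJL pools lay below all B6 pools for Cd5 (log2 fold change -0.08) and above them for Cd28 (0.08). Among all tested transcripts 9.42% and 7.68% were separated in these directions. The natural killer cell markers Ncr1 and Klrb1c lay below background on all arrays, as did the myeloid markers Csf1r and Cd14. Lyz2 and Itgam, also myeloid, were above background on all 6 arrays. Their log2 fold changes were -0.24 (standard error 0.26) and -0.10 (standard error 0.06). Pools overlapped for Lyz2, and all Itgam pools of B6-ChrYSJL lay below all B6 pools. The erythroid marker Alas2 was above background on 5 arrays, at -0.08. None of these markers was at an unadjusted p under 0.05 in limma. Some other cells or cell states moved with the strains at an unadjusted p under 0.05 in limma, and none of these passed a false discovery rate (FDR) of 0.05. Both CD8 markers, Cd8a and Cd8b1, had lower means in B6-ChrYSJL, with log2 fold changes of -0.54 and -0.28. All 5 activation and cycling markers did so too, with a median of -0.61, and the mean of the list spanned 7.64 to 7.85 in B6-ChrYSJL pools and 8.27 to 8.36 in B6 pools. The mean of the CD8 markers spanned 7.03 to 7.18 in B6-ChrYSJL pools and 7.42 to 7.62 in B6 pools. Of 4 measured B cell markers, H2-Ab1 was above background on all 6 arrays, Cd79a and Cd22 on 4 each, and Ms4a1 on none. H2-Ab1, at 0.64, was the one at an unadjusted p under 0.05 in limma. Ms4a1 was at 0.37 (unadjusted p = 0.052 in limma), Cd79a at 0.23 and Cd22 at 0.06. The pools of the strains overlapped for each of the 4, H2-Ab1 included. The mean of the 4 spanned 5.81 to 6.52 in B6-ChrYSJL pools and 5.83 to 5.90 in B6 pools. The part of these shifts in the values below was not tested.

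The microRNA machinery lay close together in the 2 strains. None of the 10 genes passed an FDR of 0.05 in limma, where 0.0171% of all tested transcripts did. The smallest adjusted p among the 10 was 0.448, for Dicer1. At an unadjusted p under 0.05 there was 1 of the 10, again Dicer1, where 10.6% of all tested transcripts passed (5.92% lower and 4.69% higher in B6-ChrYSJL). The log2 fold changes (B6-ChrYSJL minus B6) spanned -0.19 to 0.10 with a median of -0.07, while the median over all tested transcripts was -0.0036. Of the 10, 7 had a lower mean in B6-ChrYSJL, as 51.1% of all tested transcripts did, and 3 a higher mean. Among the 9 genes above background 7 had a lower mean, as 55.6% of tested transcripts above background did. The median log2 fold change was -0.067 for these 9 and -0.016 for those transcripts. The 95% intervals of the 9 genes above background lay between 0.779 and 1.17 as ratios of B6-ChrYSJL to B6, so a 2-fold difference in either direction was outside each of them. A p above the threshold does not show that the strains were equal.

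**Figure D1:**
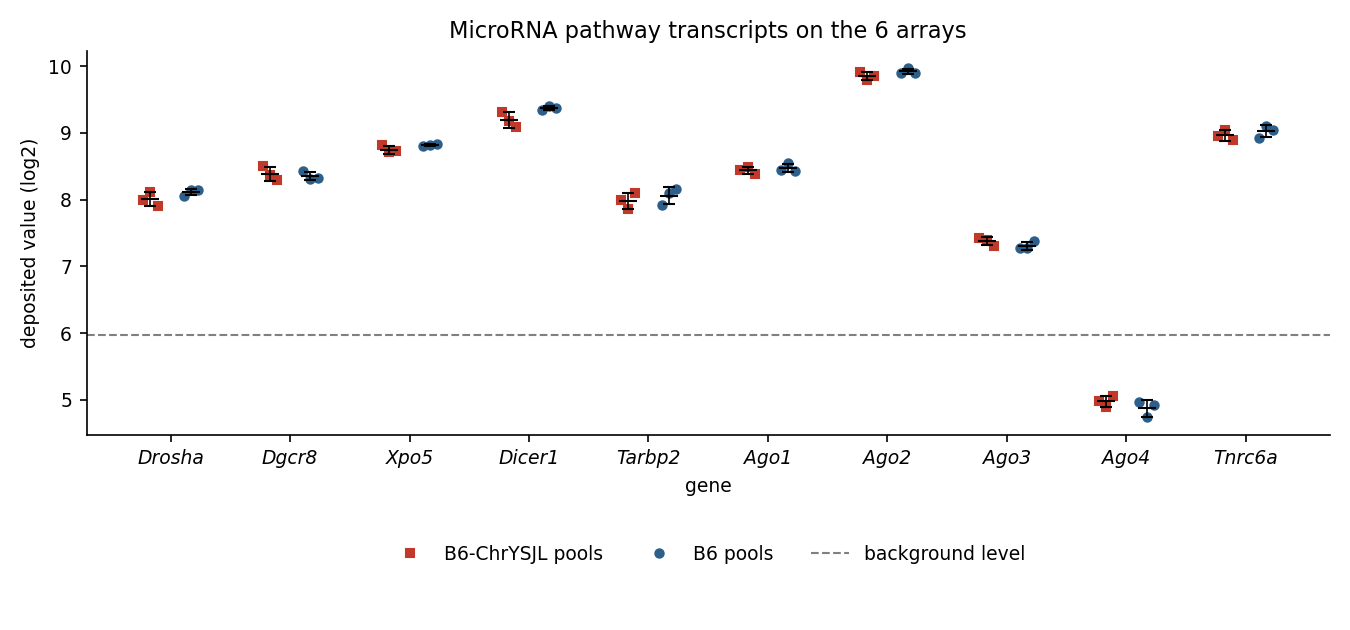
Deposited log2 values of the 10 genes on each array, with B6-ChrYSJL pools as squares left of B6 pools as circles. Horizontal marks and bars are the mean and SD of 3 pools, and the dashed line is the background level of 5.98. Ago4 lies below the line on all 6 arrays and the other 9 genes above it. Signals of different genes depend on their probes and are not comparable with each other.

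Dicer1 (cluster 10402444, chromosome 12), the cytoplasmic nuclease, read 9.32, 9.18 and 9.09 in B6-ChrYSJL pools and 9.35, 9.41 and 9.38 in B6 pools. All B6-ChrYSJL pools lay below all B6 pools, by a gap narrower than the range of the B6 pools, and 9.42% of all tested transcripts showed the same separation. None of the 10 genes was separated in the other direction, as 7.68% of all tested transcripts were. The mean was 9.19 ± 0.12 in B6-ChrYSJL and 9.38 ± 0.03 in B6 (SD, n = 3 pools each). The log2 fold change was -0.19 with a standard error of 0.08 and a 95% interval of -0.36 to -0.01, an average ratio of 0.878. The unadjusted p was 0.0375 and the adjusted p 0.448 in limma. With 3 pools a strain, 0.1 is the smallest p that an exact permutation test allows. Without B6-ChrYSJL replicate 3, the lowest pool, the log2 fold change was -0.13 and the unadjusted p in limma 0.138.

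Tarbp2 (10427255, chromosome 15), the double-stranded RNA-binding partner of DICER1, read 7.99, 7.86 and 8.10 in B6-ChrYSJL pools and 7.92, 8.10 and 8.16 in B6 pools. The pools of the strains overlapped. The log2 fold change of -0.08 was smaller than its standard error of 0.09. A second, dimmer cluster of Tarbp2 (10544497) was at 0.13 with a standard error of 0.10, so that the clusters of this gene differed in sign and neither passed the test. Their mean gave 0.03.

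In the Microprocessor, Drosha (10423185, chromosome 15) read 7.99, 8.12 and 7.91 in B6-ChrYSJL pools and 8.06, 8.14 and 8.15 in B6 pools. B6-ChrYSJL replicate 2 lay among the B6 pools, and the other B6-ChrYSJL pools lay below them. The log2 fold change was -0.11 (standard error 0.08, 95% interval -0.28 to 0.07, adjusted p = 0.646 in limma). It was -0.17 without B6-ChrYSJL replicate 2 and -0.06 without B6-ChrYSJL replicate 3. Dgcr8 (10438313, chromosome 16) read 8.50, 8.37 and 8.29 in B6-ChrYSJL pools and 8.43, 8.31 and 8.33 in B6 pools. Its highest and its lowest value were both in B6-ChrYSJL. The log2 fold change was 0.03 (standard error 0.08, 95% interval -0.14 to 0.21, adjusted p = 0.908 in limma) and turned to -0.02 without B6-ChrYSJL replicate 1. Dgcr8 and Drosha are known to control each other, DROSHA cutting the Dgcr8 mRNA and DGCR8 stabilizing DROSHA protein, and protein was not measured here.

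Xpo5 (10445458, chromosome 17), the export receptor, was the steadiest of the 10 genes within B6. It read 8.82, 8.71 and 8.73 in B6-ChrYSJL pools and 8.81, 8.82 and 8.84 in B6 pools. B6-ChrYSJL replicate 1 lay within the B6 pools and the other B6-ChrYSJL pools below them. The SD was 0.06 in B6-ChrYSJL and 0.02 in B6. The log2 fold change was -0.07 (standard error 0.06, 95% interval -0.22 to 0.07).

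Among the Argonautes, Ago2 is the member known to cleave its target RNA. It (10429327, chromosome 15) read 9.91, 9.79 and 9.86 in B6-ChrYSJL pools and 9.90, 9.97 and 9.90 in B6 pools, so the strains overlapped through B6-ChrYSJL replicate 1. The log2 fold change was -0.07 (standard error 0.07, 95% interval -0.22 to 0.08, adjusted p = 0.750 in limma). A second cluster of Ago2 (10429329) gave the same sign, -0.13 with a standard error of 0.07 and an adjusted p of 0.563 in limma.

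Of the other 3 Argonautes, neighbours on chromosome 4, Ago1 and Ago3 were above background and Ago4 below it. Ago1 (10516371) read 8.45, 8.49 and 8.39 in B6-ChrYSJL pools and 8.45, 8.55 and 8.43 in B6 pools, and its log2 fold change was -0.04 (standard error 0.07). Its direction turned under a repeated quantile normalization, to 0.01, and without B6 replicate 2, to 0.0014. Ago3 (10516348) read 7.43, 7.40 and 7.31 in B6-ChrYSJL pools and 7.27, 7.28 and 7.38 in B6 pools, with a log2 fold change of 0.07 (standard error 0.07). Its pools overlapped, B6 replicate 3 lying among those of B6-ChrYSJL. Ago4 (10516393) read 4.98, 4.89 and 5.06 in B6-ChrYSJL pools and 4.97, 4.74 and 4.92 in B6 pools, below background on all 6 arrays. Its level is therefore only bounded from above, and the size of its fitted log2 fold change, 0.10 (standard error 0.08), is uncertain. The germline Argonautes Piwil1, Piwil2 and Piwil4, which bind another class of small RNA, also lay below background on all arrays.

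Tnrc6a (10557233, chromosome 7), the scaffold that links Argonaute to the deadenylases, read 8.95, 9.05 and 8.90 in B6-ChrYSJL pools and 8.93, 9.10 and 9.05 in B6 pools. The pools overlapped, and the log2 fold change was -0.06 (standard error 0.08, adjusted p = 0.801 in limma). Its paralogues Tnrc6b and Tnrc6c were at -0.03 each, with a standard error of 0.07 for Tnrc6b and 0.08 for Tnrc6c. The direction of Tnrc6b turned without B6 replicate 3, and that of Tnrc6c without B6-ChrYSJL replicate 2.

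**Figure D2:**
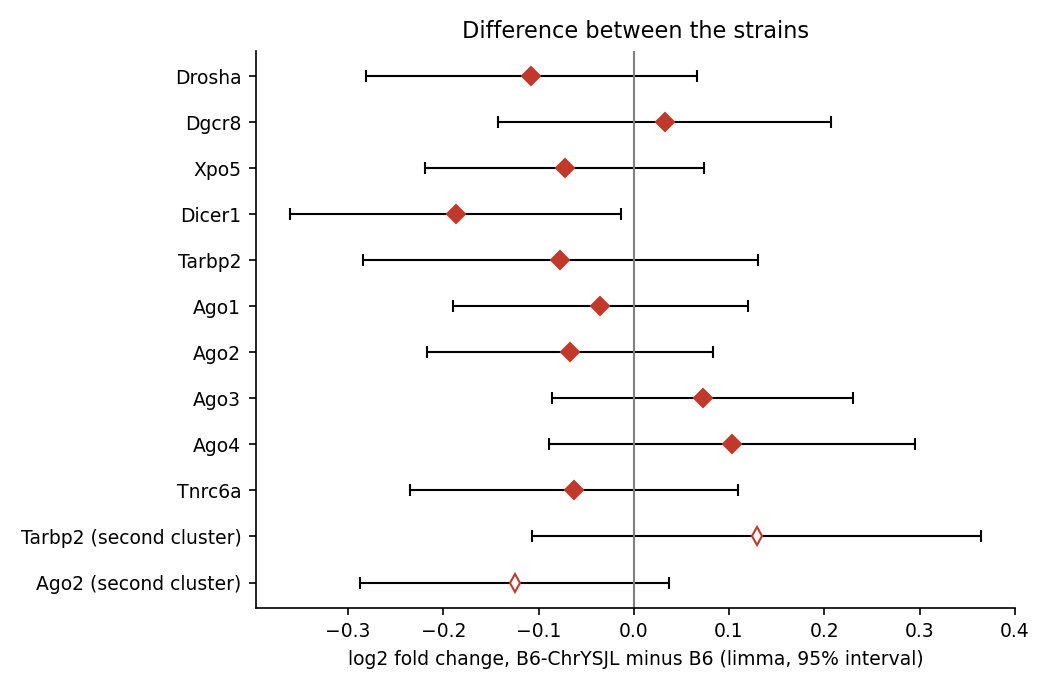
Log2 fold change of each gene (B6-ChrYSJL minus B6, horizontal) with its 95% interval from limma, 3 pools of each strain. Filled diamonds are the cluster used for a gene and open diamonds the second clusters of Tarbp2 and Ago2. The interval of Dicer1, from -0.36 to -0.01, is the one that leaves out 0, and the others hold it.

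With each gene centred on its own mean, the average of the 9 genes above background was 0.02, -0.03 and -0.07 in B6-ChrYSJL pools and -0.01, 0.05 and 0.04 in B6 pools. B6-ChrYSJL replicate 3 was the lowest array for 5 of the 9 genes, B6-ChrYSJL replicate 2 for 3, and B6 replicate 1 for 1. B6 replicate 2 was the highest for 4, B6 replicate 3 for 3 and B6-ChrYSJL replicate 1 for 2, Dgcr8 and Ago3. These counts carry no test. The SD over pools was larger in B6-ChrYSJL for 6 of all 10 genes and larger in B6 for 4, with a range of 0.05 to 0.12 in B6-ChrYSJL and 0.02 to 0.13 in B6. Among all tested transcripts the SD was larger in B6-ChrYSJL for 50.5%.

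For the 3 nucleases the transcripts with the most similar course were sought among 13495 named clusters above background for Dicer1 and Drosha, and 13494 for Ago2. The measure was the root mean square difference over the 6 arrays, each transcript centred on its mean. Nearest to Dicer1 were Zfp873, at 0.013, and Sptan1, at 0.014, where the median candidate was at 0.139. Nearest to Drosha were Gemin5 (0.016) and Arsb (0.019), and nearest to Ago2 were Orai1 and Sfswap (0.012 each). With 6 arrays, close matches among so many transcripts are easily found.

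The other genes of the pathway gave the same picture of small differences. Of 64 listed genes, 62 were measured by a cluster with 1 gene symbol, and none passed an FDR of 0.05 in limma. At an unadjusted p under 0.05 there were 7, or 11.3%, of which 2 were higher and 5 lower in B6-ChrYSJL, against 10.6% of all tested transcripts. Pools did not overlap between the strains for 8 genes lower and 3 higher in B6-ChrYSJL, against 9.42% and 7.68% of all tested transcripts. These 11 included the genes named next other than Srrt and Fxr1. The median log2 fold change of the 62 was -0.03. All values named in the next paragraph carried adjusted p-values of 0.375 or more in limma.

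Of 8 nuclear processing partners, Srrt, which couples the cap-binding complex to the Microprocessor, was the one at an unadjusted p under 0.05. It read 9.10, 8.82 and 8.76 in B6-ChrYSJL pools and 9.05, 9.26 and 9.14 in B6 pools, a log2 fold change of -0.25 (standard error 0.10), with B6-ChrYSJL replicate 1 among the B6 pools. None of 10 dicing and loading partners reached that p. Of 10 tailing and turnover genes there were 2. Dis3l2, the exonuclease that degrades uridylated precursors, read 7.79, 7.78 and 7.73 in B6-ChrYSJL pools and 7.90, 8.00 and 7.98 in B6 pools (log2 fold change -0.19, standard error 0.06). Lin28a, which blocks maturation of the let-7 family in stem cells, read 6.58, 6.42 and 6.61 in B6-ChrYSJL pools and 6.42, 6.18 and 6.17 in B6 pools (0.28, standard error 0.09). The nearest pools of Lin28a were equal to the second decimal, and Lin28a lay close to background. Of 31 silencing effectors there were 4. The deadenylases Cnot7 and Cnot8, which are paralogues, stood on opposite sides, Cnot7 at 0.15 (standard error 0.06) and Cnot8 at -0.21 (standard error 0.08). A second, dimmer cluster of Cnot8 was at 0.05 (standard error 0.10), and the mean of both clusters at -0.08 (unadjusted p = 0.406 in limma). Fmr1 and its paralogue Fxr2, RNA-binding proteins found with Argonaute, were at -0.16 (standard error 0.07) and -0.22 (standard error 0.08). Their paralogue Fxr1 did not reach that p and was on the other side, at 0.06 (standard error 0.07), with overlapping pools.

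**Figure D3:**
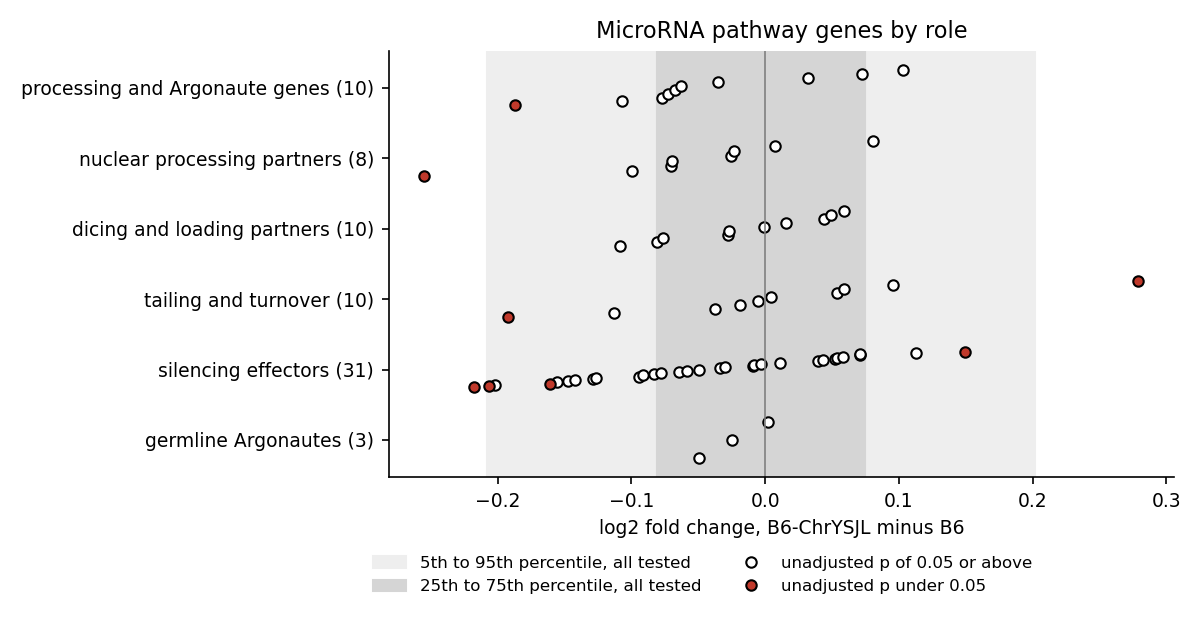
Log2 fold changes (B6-ChrYSJL minus B6, horizontal) of the 10 genes and of the 62 other pathway genes by role, 1 point a gene, with the number of genes in brackets. Filled points have an unadjusted p under 0.05 in limma, and grey bands are percentiles of all 23410 tested transcripts. Most points lie within the outer band, which runs from -0.21 to 0.20.

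**Figure D4:**
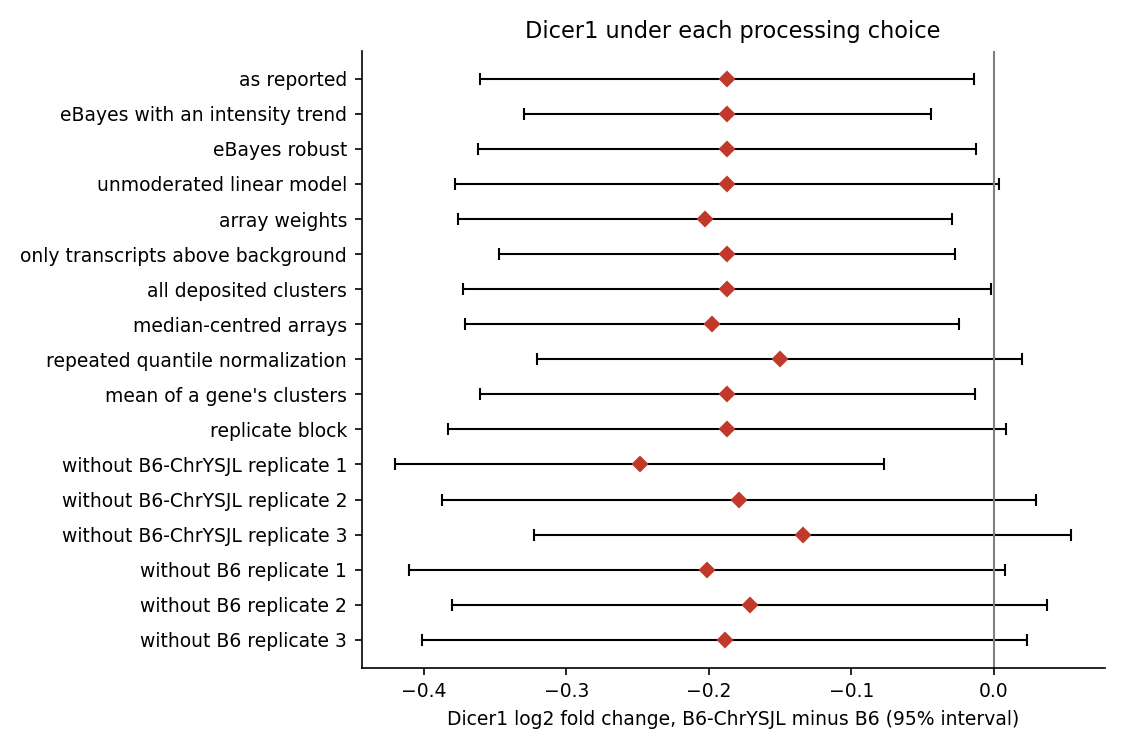
Dicer1 log2 fold change (B6-ChrYSJL minus B6, horizontal) with its 95% interval as reported in the text and under 16 alternatives, of which 6 leave out an array. All points lie below 0, from -0.25 to -0.13, and the interval leaves out 0 under 8 of the 16. The variance models, the transcripts fitted, the replicate block and averaging of clusters leave the point unchanged, so its sign there was fixed. With an array left out, the interval leaves out 0 only without B6-ChrYSJL replicate 1.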

How the data were processed

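RNA of CD4+TCRB+ cells was amplified from 50 ng and hybridized to Affymetrix Mouse Gene 1.0 ST arrays, 1 for each pool of 5 mice. The authors processed probe intensities with RMA in Partek (background correction, quantile normalization, median polish) and deposited the log2 values, 1 for each transcript cluster on each array. RMA equalizes the distributions of probe intensities, which can remove a shift common to all transcripts. The summarized arrays still differed slightly, with medians of 6.55 to 6.59 and upper quartiles of 8.31 to 8.39 over tested clusters. GCOS and mm9 are also named in the submitters' processing notes. Values were used as deposited.

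The platform annotation gave 1 gene symbol to 21789 of 35556 clusters and several to 1621, and these 23410 were tested. Symbols were updated through the gene identifiers of RefSeq (GRCm38.p6), which matched 21698 clusters. B6-ChrYSJL minus B6 was fitted in R 4.3.3 with limma 3.58.1, using lmFit and eBayes without a block. P-values were adjusted over all tested clusters by the Benjamini-Hochberg method, and the fit was tested on simulated data. Pools of a strain were taken as biological replicates, as the methods describe them. Named were all 10 genes, pathway genes at an unadjusted p under 0.05 (at most 8 a role), the Tnrc6a paralogues and the germline Argonautes. Fxr1, markers, and the nearest 2 transcripts of Dicer1, Drosha and Ago2 were also named. Genes and lists were chosen with earlier results of these data known. The alternatives left out each array in turn, blocked on replicate number, averaged a gene's clusters, weighted arrays, or changed the variance model, the filter or the normalization. Precision is limited by the number of arrays, and the median standard error was 0.08. Python 3.11.15 with matplotlib 3.10.9 drew the figures.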

Additional observations from a re-analysis of the deposited data

How the results depend on the processing

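No gene of the 10 and none of the other pathway genes passed an FDR of 0.05 under any of the 16 alternatives, and the adjusted p of Dicer1 stayed between 0.300 and 0.722. At an unadjusted p under 0.05 the count among the 10 genes was 1 in the fit above. It was 0 with an unmoderated linear model, with repeated quantile normalization and with the replicate number as a block. With an array left out it was 0 to 1. It was 0 without each array except B6-ChrYSJL replicate 1. Among the other pathway genes the count was 7 in the fit above, 9 above background only and 8 with an intensity trend. It was 4 over all deposited clusters, 4 with repeated quantile normalization and 4 with the replicate block. With an array left out it was 2 to 6 (2 without B6-ChrYSJL replicate 3 or B6 replicate 3). Of all tested transcripts 10.6% were at that p in the fit above, and the shares under the alternatives are not given here. These counts therefore cannot tell a change in these genes from a change in the whole fit. Transcripts past an FDR of 0.05 in limma numbered 4 in the fit above, where the paper, with its own model in Partek, reports none. They numbered 55 with an intensity trend, 13 above background only, 11 with median-centred arrays and 8 with a gene's clusters averaged. They numbered 0 with the unmoderated model, 0 over all deposited clusters, 2 with repeated quantile normalization, and 0 to 7 with an array left out. The causes were not tested. The alternatives gave 159 fold changes of the 10 genes. A change of variance model or of the transcripts fitted, and the replicate block, left a fold change as it was. Averaging clusters moved only Tarbp2 and Ago2. Of the 159, including those that could not move, 4 changed direction, none of them past a threshold. Tarbp2 was at 0.026 with its clusters averaged, Ago1 at 0.011 with repeated quantile normalization, and with an array left out Dgcr8 spanned -0.022 to 0.080 and Ago1 -0.061 to 0.0014. Leaving out an array kept the sign but moved the value over 1.5 times at an extreme for Drosha (-0.17 to -0.06), Tarbp2 (-0.15 to -0.018), Ago2 (-0.10 to -0.04), Ago3 (0.05 to 0.11), Ago4 (0.03 to 0.15) and Tnrc6a (-0.11 to -0.03), none of them called. Of the pathway genes, Piwil2 was at -0.0087 with median-centred arrays and -0.029 with repeated quantile normalization. With an array left out Piwil2 spanned -0.040 to 0.041, Piwil4 -0.066 to 0.014, Tnrc6b -0.087 to 0.018 and Tnrc6c -0.099 to 7.5e-05. Deviations of same-numbered pools from the group means correlated between -0.036 and -0.0001 across transcripts. Those of pools with different numbers correlated between -0.039 and 0.054. These values show no sign of pairing by number, and they cannot exclude it. Signal near background limits what Ago4, Lin28a and the germline Argonautes can show.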
